A study of Mus musculus with 48 samples.

Results

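Mzb1 and 5 further plasma cell, B cell and immunoglobulin transport genes were followed in the caecum of mice given chicory or one of its components. The genes were taken by symbol: Mzb1, any symbol that begins with Igh, Igk or Igl, and Jchain, Pou2af1, Pigr, Cd79a and Cd79b. Of these, 6 genes were present in the caecum table (Mzb1, Jchain, Igh-VJ558, Cd79a, Cd79b and Pigr), on 7 probes, out of 4293 genes tested. Another 41 immunoglobulin genes had no symbol in the table and were named from their description. They lie outside that choice of symbols and are described separately.

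Plasma cells are the antibody-secreting end stage of the B cell lineage, and in the gut wall most of them secrete IgA. Heavy and light chains are joined in the endoplasmic reticulum, the J chain links IgA into dimers, and the polymeric immunoglobulin receptor carries the dimers across the epithelium into the lumen. Mature B cells that have not yet become plasma cells hold membrane immunoglobulin in a complex with the CD79 signalling pair. In bulk tissue, fewer cells of a type and less RNA per cell cannot be told apart.

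Expression was measured on one-colour Agilent 4 × 44 v2 mouse oligonucleotide arrays, with 1 array per mouse and 16 arrays for the caecum. Male BALB/cOlaHsd mice aged 8 weeks at the start were force-fed daily for 30 days with 500 µL of liquid beside standard chow. The groups were a decoction of chicory flour (Chic, 30 mg of root powder per mouse per day, n = 3), fructose (Fru, n = 3) and their water control (Ctr1, n = 2), and chlorogenic acids (CGA, n = 3), sesquiterpene lactones (STL, n = 3) and their control (Ctr2, n = 2). The feeding methods describe Ctr2 as receiving dilute DMSO, the solvent of the CGA and STL solutions. The array methods instead name drinking water for both control groups, and the labels state water for all controls. The component doses were set to match the chicory extract.

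Each comparison below asked whether a diet moved these genes against its own control. With 2 control mice per group, every difference rests on few animals. On 4 arrays (Chic 3, Fru 2, CGA 2 and STL 3) the median deposited intensity lay more than 0.5 log2 units below the middle of the 16, at 187 to 675.5 against 835 to 1687 on the other 12. The table held no value under 300 for Ctr1 mouse 2, while the other 15 arrays reached 35 or less. Every listed gene thus read at least 300 on that array, which held for no other array, so a gene that is dim elsewhere may stand high there, and its level on Ctr1 mouse 2 is not read as a difference between mice. The labels call all 16 mice male in one field and tag 8 of them female in another, and the Y-linked Eif2s3y read 7.57 to 9.40 log2 units over the 16 arrays. The labels name caecum where the methods also speak of a colon segment. All 16 of the listed epithelial genes were measured. Of 14 listed Paneth cell genes, which belong to the small intestine, 3 were measured (Defa3, Defa23 and Lyz1). The mean of these 3 was 7.03 to 13.25 log2 units in Chic mice, 6.74 to 12.70 in Fru mice and 7.84 to 13.60 in Ctr1 mice. It was 7.36 to 9.95 in CGA mice, 7.84 to 13.08 in STL mice and 12.36 to 13.15 in Ctr2 mice.

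Promoter sequence was at hand for 3 of the 6 genes and is shown because Jchain (a plasma cell product), Cd79a (a B cell receptor subunit) and Pigr (an epithelial receptor) stand for the compartments compared below. Each run holds 250 bases before and 50 after the start of transcription, 5′ to 3′, from RefSeq on build GRCm38.p6. Capitals mark CAGGTG, an E-box that E-proteins of the B cell lineage are known to bind, on either strand (CACCTG on the other), and the palindromic E-box CACGTG.
Jchain (chr5:88527848-88528147, minus strand): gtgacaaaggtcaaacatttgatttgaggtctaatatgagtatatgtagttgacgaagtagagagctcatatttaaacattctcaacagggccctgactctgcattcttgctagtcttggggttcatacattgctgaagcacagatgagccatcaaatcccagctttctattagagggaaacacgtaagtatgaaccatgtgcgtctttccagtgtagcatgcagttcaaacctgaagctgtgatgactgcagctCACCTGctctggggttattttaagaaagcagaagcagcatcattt
Cd79a (chr7:24897247-24897546, plus strand): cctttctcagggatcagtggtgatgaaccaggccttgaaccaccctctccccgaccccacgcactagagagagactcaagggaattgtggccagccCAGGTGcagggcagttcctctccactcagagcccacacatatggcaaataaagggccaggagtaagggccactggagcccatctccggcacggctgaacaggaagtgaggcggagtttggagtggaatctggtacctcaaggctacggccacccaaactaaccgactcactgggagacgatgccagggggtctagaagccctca
Pigr (chr1:130826434-130826733, plus strand): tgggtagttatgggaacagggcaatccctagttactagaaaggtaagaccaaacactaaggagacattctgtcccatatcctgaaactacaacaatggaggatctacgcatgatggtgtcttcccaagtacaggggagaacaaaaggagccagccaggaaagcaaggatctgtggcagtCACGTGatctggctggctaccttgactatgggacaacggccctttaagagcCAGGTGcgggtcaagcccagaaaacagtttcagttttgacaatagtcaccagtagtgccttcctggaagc
CAGGTG began at -154 in Cd79a, at -20 in Pigr and, on the opposite strand, at 6 in Jchain. It was found in 20.2% of the 32851 promoter windows of the same length. CACGTG began at -71 in Pigr and was present in 7.15% of the windows. The octamer ATGCAAAT, on either strand, was in 1.74% of all windows and in none of these 3. These matches describe letters only.

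Mzb1 encodes a chaperone-associated protein of the endoplasmic reticulum found in marginal zone B cells and plasma cells, where it aids antibody assembly. Its single probe was printed as 10 spots, and their mean stood for the gene. On the normalized log2 scale Mzb1 read 8.83, 9.45 and 9.75 in Chic mice 1 to 3, against 8.51 and 9.04 in Ctr1 mice. Chic mouse 1 lay between both controls, and the other 2 lay above them. Fru mice read 9.35, 9.92 and 9.48, all above both Ctr1 mice. The mean log2 difference was 0.57 ± 0.30 (SE) for Chic against Ctr1, a 1.48-fold ratio (95% interval of the log2 difference -0.09 to 1.22, unadjusted p = 0.0843, adjusted p = 1.00 in limma). For Fru against Ctr1 it was 0.81 ± 0.30, a 1.75-fold ratio (interval 0.16 to 1.47, unadjusted p = 0.0189, adjusted p = 0.631 in limma), so it did not pass the threshold after adjustment over all genes. All 3 mice lay above both controls for 10.4% of all genes in that comparison, and 6.78% of all genes had an unadjusted p under 0.05. With the intensities as deposited, where the median gene was lower in Fru, the Fru difference of Mzb1 was 0.18.

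In the other feeding series Mzb1 read 9.39, 8.92 and 9.14 in CGA mice and 8.84, 8.88 and 9.47 in STL mice, against 8.98 and 9.44 in Ctr2 mice. The groups overlapped. The log2 difference was -0.05 ± 0.30 for CGA (interval -0.71 to 0.60) and -0.15 ± 0.30 for STL (interval -0.80 to 0.51), with adjusted p = 1.00 and 0.999 in limma. Fru exceeded Chic by 0.24 ± 0.27 (interval -0.34 to 0.83) and Ctr2 exceeded Ctr1 by 0.43 ± 0.33 (interval -0.29 to 1.15). The 2 controls thus differed by an amount close to the Chic difference. The effect of CGA minus that of Chic was -0.62 ± 0.43 and the effect of STL minus that of Chic was -0.71 ± 0.43, neither of which passed the test (unadjusted p = 0.171 and 0.121, adjusted p = 1.00 for both in limma). Of the 6 members 0 had an unadjusted p under 0.05 in these contrasts between diets, against 2.07% and 1.63% of genes. From the highest group mean to the lowest, the order was Fru (9.59 ± 0.30, SD, n = 3), Chic (9.34 ± 0.47, n = 3), Ctr2 (9.21 ± 0.33, n = 2), CGA (9.15 ± 0.24, n = 3), STL (9.06 ± 0.35, n = 3) and Ctr1 (8.78 ± 0.37, n = 2), and the ranges of each pair of neighbours overlapped.

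**Figure D1:**
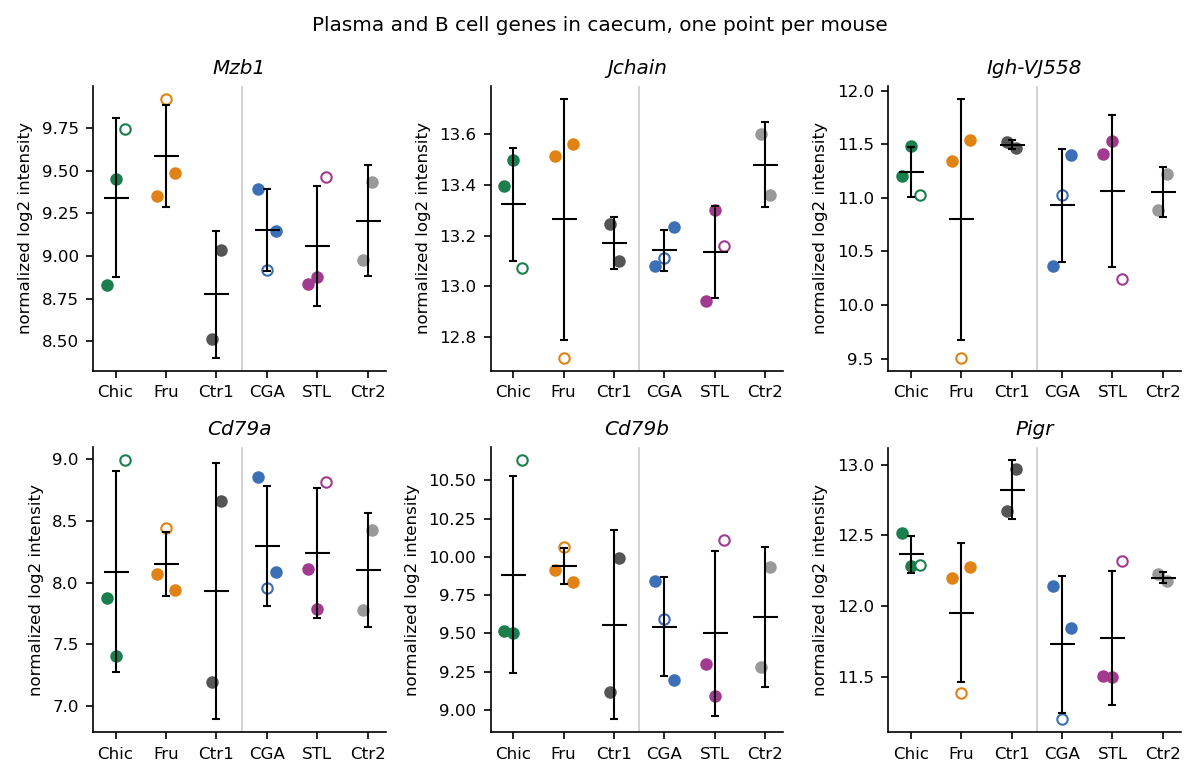
Normalized log2 intensity (vertical axis) of 6 genes in each caecum group (horizontal axis), with 1 point per mouse, a bar at the group mean and whiskers of 1 SD; open points are the 4 arrays of low median intensity. Fru mice sit at 9.35 to 9.92 for Mzb1, above the Ctr1 mice at 8.51 and 9.04, while most other groups overlap their control.

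The 10 Mzb1 spots gave the scatter of spots within an array, which does not measure error between arrays. On a single array the spots had a median SD of 0.21 log2 units (0.07 to 0.42). The SE of their mean, which stood for the gene, was 0.02 to 0.13. Mice of a group had a pooled SD of 0.35. The widest spot SD, 0.42, was on Ctr1 mouse 2. All 10 spots were higher in Chic than in Ctr1, by 0.39 to 0.85, and all 10 were higher in Fru, by 0.64 to 1.20. The spots were read on the same mice, so a count of spots is not further evidence on a diet. The spot that the study lists for Mzb1 gave 0.85 for Chic, the largest of the 10, and 0.83 for Fru, where it ranked 3. For CGA 2 of 10 spots lay above 0 (-0.19 to 0.20), and for STL 1 of 10 (-0.31 to 0.11). As fold over the mean of the controls, the Chic mice stood at 1.02, 1.57 and 1.93, and the Fru mice at 1.47, 2.18 and 1.61, so no diet put every mouse beyond a 2-fold difference.

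Further products of plasma cells were next. Jchain encodes the joining peptide of polymeric IgA and IgM. It read 13.40, 13.50 and 13.07 in Chic mice and 13.52, 12.72 and 13.56 in Fru mice, against 13.24 and 13.10 in Ctr1 mice. The groups overlapped, with log2 differences of 0.15 ± 0.24 for Chic and 0.09 ± 0.24 for Fru. CGA mice read 13.08, 13.11 and 13.23 and STL mice 12.94, 13.30 and 13.16, against 13.60 and 13.36 in Ctr2 mice. All 3 mice of both diets lay below both controls, a pattern shared by 7.04% of all genes for CGA and 7.67% for STL. The log2 difference was -0.34 ± 0.24 for CGA (unadjusted p = 0.183) and -0.35 ± 0.24 for STL (unadjusted p = 0.175), with adjusted p = 1.00 and 0.999 in limma.

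Igh-VJ558 names transcripts of the J558 family of heavy chain variable segments, and its probe lists several cDNA clones. Chic mice read 11.21, 11.49 and 11.03 and Fru mice 11.35, 9.51 and 11.54, against 11.53 and 11.47 in Ctr1 mice. Fru mouse 2, the array of lowest median, stood alone at 9.51. With it the log2 difference of Fru was -0.70 ± 0.53, and without that array it was -0.05. CGA mice read 10.36, 11.02 and 11.40 and STL mice 11.41, 11.53 and 10.25, against 10.89 and 11.22 in Ctr2 mice, and the log2 differences were -0.12 ± 0.53 and 0.01 ± 0.53.

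The pair of B cell receptor subunits was considered next. Cd79a and Cd79b carry the signal of membrane immunoglobulin into the B cell. Cd79a read 7.87, 7.40 and 8.99 in Chic mice and 8.07, 8.44 and 7.94 in Fru mice, against 7.20 and 8.66 in Ctr1 mice, which enclosed all but Chic mouse 3. It read 8.85, 7.96 and 8.08 in CGA mice and 8.11, 7.79 and 8.81 in STL mice, against 7.78 and 8.43 in Ctr2 mice. The log2 differences lay between 0.14 and 0.22 over the 4 diets, each with an SE of 0.50. Cd79b read 9.52, 9.50 and 10.63 in Chic mice and 9.92, 10.07 and 9.83 in Fru mice, against 9.12 and 9.996 in Ctr1 mice, with log2 differences of 0.33 ± 0.40 and 0.38 ± 0.40. It read 9.84, 9.60 and 9.20 in CGA mice and 9.30, 9.09 and 10.11 in STL mice, against 9.28 and 9.93 in Ctr2 mice, with log2 differences of -0.06 ± 0.40 and -0.11 ± 0.40. The readings of the 2 Ctr1 mice lay further apart than any of these differences. Ctr1 mouse 2 is the array with no listed value under 300, so this gap is not read as a difference between mice. Leaving out Ctr1 mouse 1 gave Cd79a -0.58 for Chic and -0.52 for Fru, and leaving out Ctr1 mouse 2 gave 0.94 and 1.01. The same omissions gave Cd79b -0.11 and -0.06, or 0.77 and 0.82.

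Pigr encodes the receptor that epithelial cells use to export polymeric IgA. Chic mice read 12.52, 12.28 and 12.29 and Fru mice 12.20, 11.39 and 12.28, against 12.67 and 12.97 in Ctr1 mice. All 6 diet mice lay below both controls, which was so for 8.09% of all genes in Chic and 8.29% in Fru. The log2 difference was -0.46 ± 0.33 for Chic and -0.87 ± 0.33 for Fru (unadjusted p = 0.0206, adjusted p = 0.644 in limma), and -0.57 for Fru without Fru mouse 2. CGA mice read 12.14, 11.20 and 11.85 and STL mice 11.50, 11.50 and 12.32, against 12.23 and 12.18 in Ctr2 mice. The log2 differences were -0.47 ± 0.33 and -0.43 ± 0.33. Every CGA mouse lay below both controls, which was so for 7.04% of all genes. These values come from the brighter of the gene's 2 probes, whose listed hits also name Zfp811 and Rhox8. The other probe, whose RefSeq hits are Pigr alone, gave 0.13 ± 0.41 for Chic, -0.24 ± 0.41 for Fru, -0.31 ± 0.41 for CGA and 0.01 ± 0.41 for STL. On that probe Chic mice, at 11.83 to 12.41, and Fru mice, at 10.85 to 12.18, overlapped Ctr1 mice, at 11.76 and 12.10. CGA mice overlapped Ctr2 mice on that probe too, at 10.45 to 11.80 against 11.48 and 11.55. Both probes correlated at r = 0.73 over the 16 arrays. The separation of Pigr in Chic, Fru and CGA mice from their controls was thus seen with 1 probe only. On the second probe Fru was lower by a smaller amount and Chic was not lower.

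No member passed an adjusted p of 0.05 in limma in any of 7 comparisons. In Chic against Ctr1, 0 of 6 members were called, against 0% of 4293 genes, and 0 of 6 had an unadjusted p under 0.05, against 2.89%. In Fru against Ctr1, 0 of 6 were called, against 0.0233% of genes, and 2 of 6 (Mzb1 higher and Pigr lower) had an unadjusted p under 0.05, against 6.78%. CGA and STL against Ctr2 called 0 of 6 members, against 0% of genes, with 0 of 6 at an unadjusted p under 0.05, against 3.38% and 3.47%. Fru against Chic, STL against CGA and Ctr2 against Ctr1 called 0 of 6 members each, against 0% of genes, and again 0 of 6 members had an unadjusted p under 0.05, against 1.14%, 1.21% and 6.17%. All 3 mice lay above both controls for 0 of 6 members in Chic, CGA and STL, against 9.18%, 10.6% and 10.2% of genes. In Fru this held for Mzb1, against 10.4% of genes. Below both controls lay Pigr, on its brighter probe, in Chic and Fru, against 8.09% and 8.29% of genes. In CGA both Jchain and Pigr lay below, against 7.04% of genes, and in STL Jchain, against 7.67%. The median log2 difference of the 6 members was 0.15 for Chic, 0.16 for Fru, -0.09 for CGA and -0.13 for STL, beside 0.02, 0.00, 0.02 and 0.02 over all genes.

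**Figure D2:**
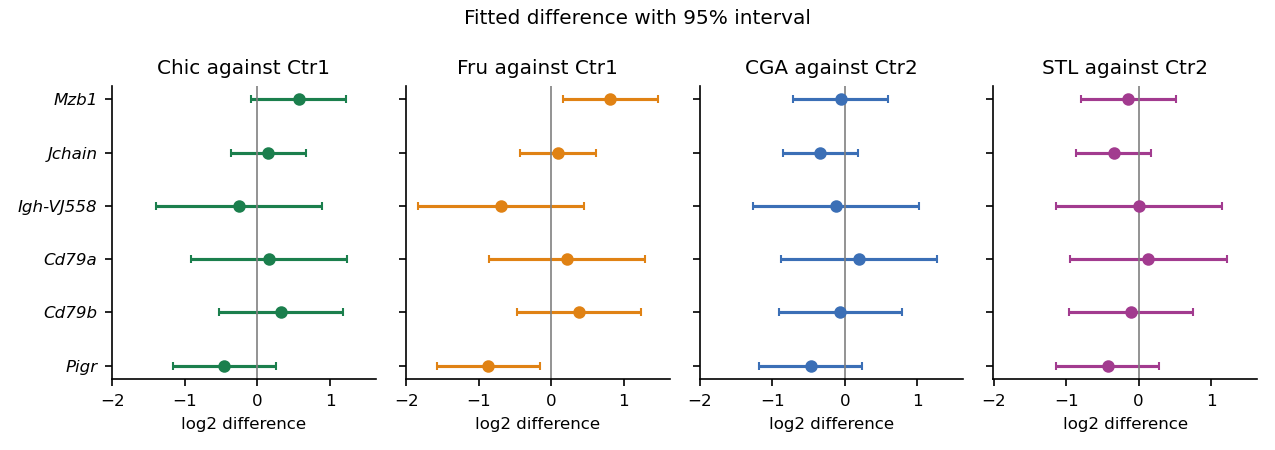
Fitted log2 difference (horizontal axis) of each of 6 genes (vertical axis) in each diet against its own control, with 95% intervals from limma. The intervals cross 0 except those of Mzb1 (0.16 to 1.47) and Pigr (-1.58 to -0.16) in Fru against Ctr1, neither of which passed adjustment over all genes.

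Next, how the members moved together from mouse to mouse was examined, as Pearson's r and Spearman's rho over the 16 arrays with permutation p-values adjusted over all 4275 other genes with a value on every array. Of the 4275 genes, 97 passed adjustment with Mzb1 by Pearson's r and 0 by Spearman's rho, and 964 (22.5%) and 830 (19.4%) had an unadjusted p under 0.05, so a relation to Mzb1 was common among genes. With the B cell receptor subunit Cd79b, which ranked 24, Mzb1 gave r = 0.78 (permutation p = 0.000510, adjusted p = 0.0415) and rho = 0.72 (adjusted p = 0.0939), and with Cd79a r = 0.59 (adjusted p = 0.131) and rho = 0.54 (adjusted p = 0.220). Both relations kept their sign as deviations from group means (r = 0.79 and 0.76), among the 8 Chic, Fru and Ctr1 arrays (r = 0.75 and 0.57) and among the 8 CGA, STL and Ctr2 arrays (r = 0.84 and 0.87). Without Fru mouse 2 and Ctr1 mouse 1, the arrays farthest from the Mzb1 median, r was 0.76 and 0.47, and neither passed adjustment (adjusted p = 0.159 and 0.437). Cd79a and Cd79b gave r = 0.79 with each other (adjusted p = 0.0177) and rho = 0.79 (adjusted p = 0.0246). With Cd79a, 315 of 4275 genes passed by Pearson's r and 280 by Spearman's rho, among which Cd79b ranked 28 and 45.

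No relation of Mzb1 to Jchain, Igh-VJ558 or Pigr passed adjustment. With Jchain, r was -0.21 (adjusted p = 0.666) and rho -0.14 (adjusted p = 0.810), and with Igh-VJ558, r was -0.57 (adjusted p = 0.152) and rho -0.33 (adjusted p = 0.494). Without the same 2 arrays r was 0.10 for Jchain and -0.26 for Igh-VJ558. For Igh-VJ558 r was -0.60 among the Chic, Fru and Ctr1 arrays and -0.65 among the CGA, STL and Ctr2 arrays. As deviations from group means it was -0.56. For Jchain r was -0.34, 0.03 and -0.52 in the same order. None of these values passed adjustment. With Pigr, r was -0.09 over the 16 arrays, -0.76 among the Chic, Fru and Ctr1 arrays and 0.78 among the CGA, STL and Ctr2 arrays (adjusted p = 0.341 and 0.274). Jchain and Igh-VJ558 gave r = 0.57 with each other (adjusted p = 0.163) and rho = 0.38 (adjusted p = 0.460).

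Array brightness moved with these relations. Against the median log2 intensity of each array before normalization, Jchain gave r = 0.66, Igh-VJ558 0.77 and Pigr 0.37, while Mzb1 gave -0.50, Cd79a -0.43 and Cd79b -0.49. Without the 4 arrays of low median, Mzb1 gave r = 0.69 with Cd79b (adjusted p = 0.723), 0.42 with Cd79a, 0.35 with Jchain and -0.23 with Igh-VJ558. The mean of the 16 epithelial genes gave r = -0.66 with Mzb1, 0.65 with Jchain and 0.79 with the array median. The mean of 6 genes listed for macrophages and dendritic cells (Csf1r, Itgam, Lyz1, Lyz2, C1qa and C1qc) gave r = 0.66 with Mzb1. Of these, Lyz1 is also a listed Paneth cell gene, and C1qa is among the genes most like Mzb1 named below. The part of brightness and of these cell types in the relations was not tested.

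**Figure D3:**
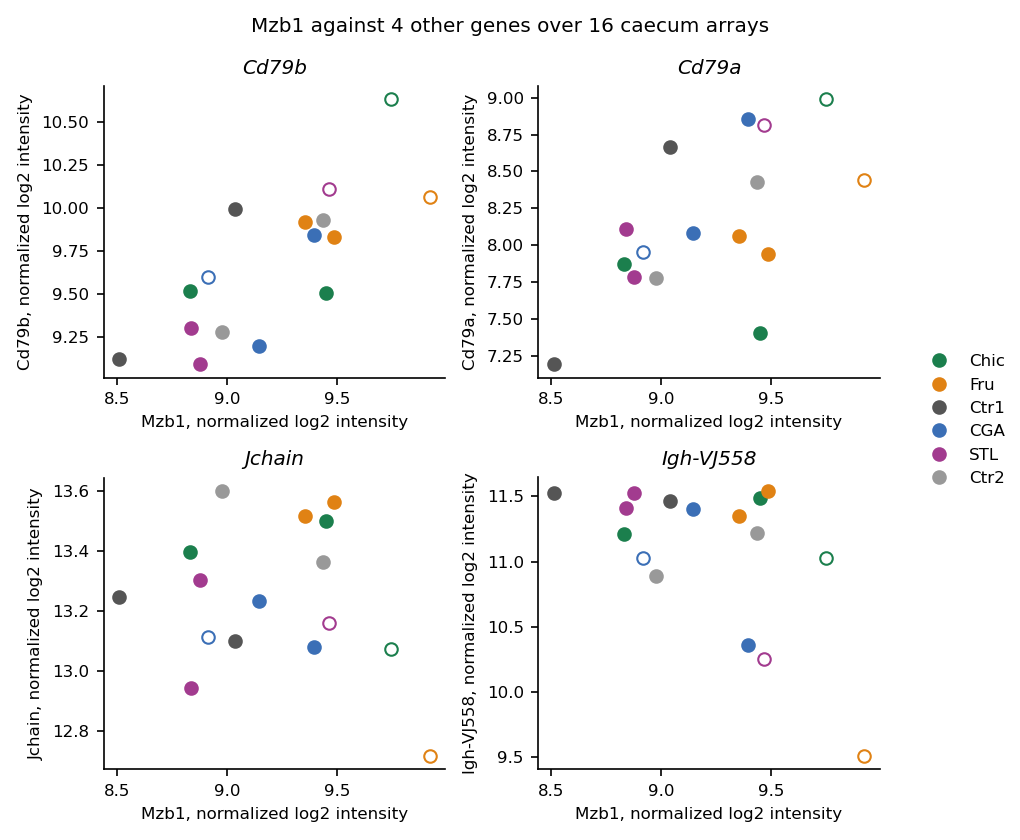
Normalized log2 intensity of Mzb1 (horizontal axis) against Cd79b, Cd79a, Jchain and Igh-VJ558 (vertical axes), with 1 point per caecum array coloured by group; open points are the 4 arrays of low median. Cd79b (r = 0.78) and Cd79a (r = 0.59) climb with Mzb1, and Fru mouse 2, at 9.92 for Mzb1, is the lowest point for Jchain (12.72) and Igh-VJ558 (9.51).

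The genes whose levels were most like Mzb1 over the 16 arrays were Josd1 (r = 0.86), Ltb, which encodes a lymphotoxin of lymphoid tissue (0.85), Ruvbl1 (0.83), Hcls1, a blood cell adaptor (0.82), Ciapin1 (0.82), C1qa, a complement component made by macrophages (0.82), Cd151 (0.82) and Rcc2 (0.82). By deviations from group means they were Mcm5, a replication licensing factor (0.94), H2-DMb1, which loads peptides on class II molecules (0.94), Pfkl (0.94), Dpp3 (0.93), Pgap3 (0.92), Cyba (0.92), Pcdh1 (0.91) and Crip1 (0.90). The first 8 correlated at -0.38 to -0.68 with the array median and the second 8 at -0.22 to -0.57. By levels Cd79a ranked 215 among 4275 genes, while Jchain ranked 2739 and Igh-VJ558 3937.

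Listed markers of both cell types were sparse in the table. Of 24 plasma cell genes 8 were measured. Beside Mzb1 and Jchain these were Xbp1, the transcription factor of the secretory programme (11.17 to 11.93 log2 units over the 16 arrays), Creld2 (9.54 to 11.19), Ssr4 (10.81 to 11.87), Sec11c (7.84 to 9.51), Eaf2 (8.92 to 10.06) and Herpud1 (9.91 to 10.93). Their relations to Mzb1 went both ways, with r = 0.73 for Creld2, 0.69 for Ssr4, 0.38 for Eaf2, -0.11 for Xbp1, -0.22 for Herpud1 and -0.30 for Sec11c. Of 20 B cell genes 6 were measured, and those besides the CD79 pair were Ms4a1, which encodes CD20 (r = 0.74 with Mzb1), Vpreb3 (0.69), Spib (0.63) and Blnk (-0.36). The mean of the 6 spanned 8.91 to 10.01 log2 units in Chic mice and 9.30 to 9.54 in Fru mice, against 8.71 to 9.33 in Ctr1 mice, and 9.01 to 9.47 in CGA mice and 8.74 to 9.50 in STL mice, against 9.03 to 9.42 in Ctr2 mice. The median log2 differences over the 8 plasma cell genes were 0.11 for Chic, 0.08 for Fru, -0.04 for CGA and -0.09 for STL. Over the 6 B cell genes they were 0.29, 0.36, -0.06 and -0.08, beside 0.02, 0.00, 0.02 and 0.02 over all genes. None of the genes of either list was called in these 4 comparisons, and 1 of 8 and 1 of 6 had an unadjusted p under 0.05 in Fru. Ms4a1 in Fru had a log2 difference of 0.81 ± 0.34 (unadjusted p = 0.0313, adjusted p = 0.669 in limma).

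Pathways around antibody secretion were read from lists of known genes, and limma called 0 of their genes in any of the 4 diet comparisons. Folding partners of the secretory pathway had 22 of 32 genes measured, with median log2 differences of 0.18 for Chic, 0.15 for Fru, -0.10 for CGA and -0.24 for STL. In Fru, 5 of the 22 had an unadjusted p under 0.05, all higher, against 6.78% of all genes in either direction. These were the glucose-regulated chaperone gene Hsp90b1 (0.63 ± 0.28), Manf (0.65 ± 0.28), the co-chaperone Dnajb11 (0.50 ± 0.18) and the degradation channel genes Derl1 (0.46 ± 0.18) and Derl2 (0.55 ± 0.24), with adjusted p of 0.607 to 0.695 in limma. In CGA and in STL 2 of the 22 had an unadjusted p under 0.05, both higher, against 3.38% and 3.47% of all genes in either direction. These were the translocon gene Sec61a1 (2.76 ± 1.22 for CGA and 2.69 ± 1.22 for STL) and the stress transcription factor gene Atf4 (2.42 ± 0.95 and 2.65 ± 0.95), with adjusted p = 1.00 for CGA and 0.999 for STL in limma. Over all caecum arrays Sec61a1 spanned 3.88 to 10.80 log2 units with a median of 10.04. Atf4 spanned 6.96 to 12.27 with a median of 11.89. The lowest reading of each gene thus lay far below its median. How far the differences of Sec61a1 and Atf4 rest on a few such low readings was not tested, so they are not read as a response to either diet. Of 24 genes of IgA induction and homing 3 were measured (Ccl25, Cxcl13 and Aldh1a1), and 0 of these had an unadjusted p under 0.05. Of 20 B cell receptor signalling genes 3 were measured (Blnk, Cd81 and Ptpn6), and the phosphatase gene Ptpn6 had an unadjusted p of 0.0370 in Fru with a log2 difference of 0.82 ± 0.35 (adjusted p = 0.695 in limma).

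The 41 immunoglobulin genes named by description filled in the chains themselves, and all 41 symbols were found in RefSeq. They comprised 30 kappa variable genes, the kappa constant gene Igkc, Iglv1, Iglv3, Iglc1, Iglc2 and Iglc3 of the lambda locus, and Igha, Ighm, Ighg2b, Ighg2c and Ighv14-3 of the heavy chain locus. Of their 46 probes 23 list more than 1 Ensembl transcript, so that signals of near-identical segments may be shared. None of the 41 was called in the 7 comparisons (lowest adjusted p = 0.873), and 0 had an unadjusted p under 0.05. The largest diet difference was that of Iglv3, a dim lambda variable segment, at -2.48 ± 1.27 for Chic. Its Chic mice read 2.29, 3.10 and 5.62, against 3.78 and 8.52 in Ctr1 mice, so the groups overlapped. The 8.52 is that of Ctr1 mouse 2, the array with no listed value under 300. The brighter Igha probe, for the constant region of IgA, held the highest value of the array on 13 of 16 arrays and reached 65000 or more on 3, which leaves only a bound. The second Igha probe held the highest value on 1 array, spanned 13.54 to 15.80 log2 units and differed by 0.03 ± 0.47 for Chic, -0.56 ± 0.47 for Fru, 0.17 ± 0.47 for CGA and -0.02 ± 0.47 for STL. The lowest reading, 13.54, was that of a Fru mouse. In Chic, Fru, Ctr1 and Ctr2 alike its highest reading was 15.54, near the top of the scale, so its differences are limited from above as well. Igkc, the constant region of most mouse light chains, spanned 13.34 to 14.45 and had differences of -0.32 to -0.10.

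Lambda light chain genes were compared pairwise from mouse to mouse. Iglv1 is a lambda variable segment and Iglc1, Iglc2 and Iglc3 are constant regions of lambda light chains. Iglc1 read 10.26, 10.88 and 10.30 in Chic mice and 10.14, 10.09 and 11.48 in Fru mice, against 10.72 and 10.81 in Ctr1 mice. Iglv1 read 8.79, 9.83 and 9.10 in Chic mice and 9.46, 9.005 and 10.26 in Fru mice, against 9.34 and 9.37 in Ctr1 mice. In the other series Iglc1 read 10.52, 10.67 and 10.19 in CGA mice and 10.31, 11.65 and 10.46 in STL mice, against 11.08 and 10.16 in Ctr2 mice. Fru mouse 3 and STL mouse 2 were the highest for both genes.

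Over the 16 arrays Iglc1 and Iglv1 gave r = 0.90, and by Pearson's r Iglv1 ranked 1 of 4275 genes for Iglc1. Spearman's rho was 0.78, which ranked 2. Without the 2 arrays farthest from the Iglc1 median r was 0.77, and as deviations from group means it was 0.93. Within the Chic, Fru and Ctr1 arrays r was 0.85, and within the CGA, STL and Ctr2 arrays 0.95. Iglc2 and Iglc3 gave r = 0.86, and Iglc3 ranked 1 of 4275 genes for Iglc2 by Pearson's r and 2 by Spearman's rho (0.81). One of the 2 Iglc3 probes lists transcripts of Iglc2 among its hits. Iglc1 gave r = 0.16 with Iglc2, 0.02 with Iglc3 and -0.01 with Igkc, and Iglc2 gave r = 0.51 with Igkc. These Iglc1 values differed in sign between the series. Within the Chic, Fru and Ctr1 arrays they were 0.37, 0.32 and 0.61. Within the CGA, STL and Ctr2 arrays they were -0.10, -0.27 and -0.68. The pairs were picked for these values among 105 pairs of 15 genes, so they are given as a description with no test.

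**Figure D4:**
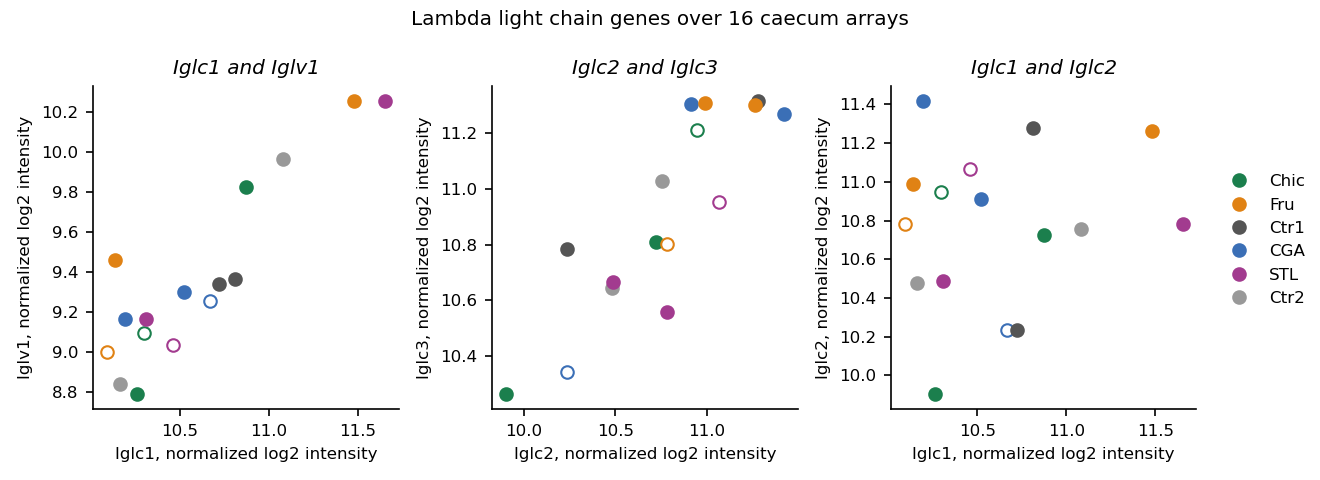
Normalized log2 intensity of lambda light chain genes over 16 caecum arrays, with 1 point per array coloured by group; open points are the 4 arrays of low median. Iglc1 and Iglv1 (r = 0.90) and Iglc2 and Iglc3 (r = 0.86) each climb together, while Iglc1 and Iglc2 (r = 0.16) do not.

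The 30 kappa variable genes spread widely between mice of the same group. Their mean level was 7.99, 8.91 and 8.75 in Chic mice and 8.55, 8.83 and 9.05 in Fru mice, against 8.04 and 9.39 in Ctr1 mice. It was 7.98, 7.96 and 9.24 in CGA mice and 8.28, 7.88 and 8.23 in STL mice, against 8.17 and 9.08 in Ctr2 mice. CGA mouse 3 had 28 of 30 genes above their own median, and Chic mouse 2 and Ctr2 mouse 2 had 27 each, whereas CGA mouse 2 had 1. Ctr1 mouse 2 had 30, but with no listed value under 300 on that array this count cannot be told apart from the choice of rows, and the Chic and Fru differences rest on the same array. The median log2 difference over the 30 genes was -0.10 for Chic, 0.07 for Fru, -0.32 for CGA and -0.53 for STL. In STL 28 of 30 lay below 0, beside 2017 of all 4293 genes. Each group has its own mice, and genes of 1 mouse are not independent.

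Kappa genes were also compared by family. Over 62 pairs within a family the median r was 0.88, and over 373 pairs between families it was 0.63, with 0.19 to 0.96 within and -0.05 to 0.98 between families, given as a description because family members share sequence and probes share hits. The median r was 0.89 for the 10 Igkv4 genes and 0.87 for the 5 Igkv1 genes, but 0.70 for the 2 Igkv3 genes and 0.19 for the 2 Igkv5 genes. The mean of the Igkv1 genes ran from 7.67 on Chic mouse 1 to 9.29 on Fru mouse 3. The mean of the 30 genes gave r = 0.70 and rho = 0.76 with Igkc, 0.49 and 0.50 with Mzb1, and 0.01 and 0.01 with Jchain, while its r with the array median was -0.06. With Mzb1, 29 of the 30 genes had r above 0 (median 0.40, -0.03 to 0.61), beside a median of -0.05 over all genes. All r values of the kappa genes include Ctr1 mouse 2, where their high level cannot be told apart from the choice of rows. No value without that array is given.

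**Figure D5:**
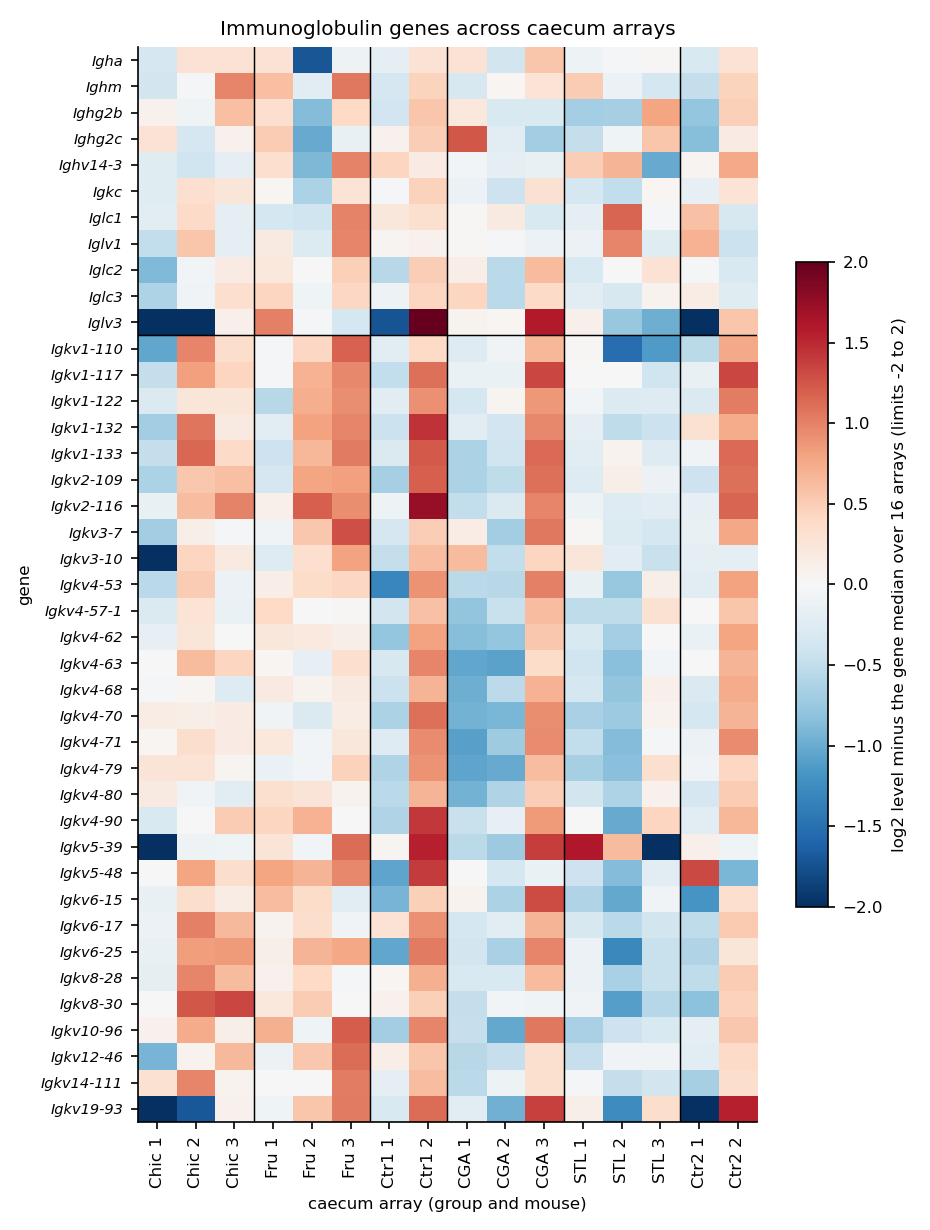
Log2 level of 41 immunoglobulin genes (rows) on 16 caecum arrays (columns, diets left of their control), each minus the gene's own median over the arrays; red is above and blue below, with colours limited to -2 and 2, and Igha is drawn from its second probe. CGA mouse 3 is red over 28 of 30 kappa variable genes and CGA mouse 2 over 1; Ctr1 mouse 2 is red over 30, on an array with no listed value under 300.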

How the data were processed

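Gene expression was measured in the caecum of 16 mice in 6 groups. The authors deposited 1 table of linear one-colour array intensities, with no scale or log stated. Per the labels the values came from Agilent Feature Extraction (no version given), while the methods name GenePix Pro and quantile normalization; the 16 array medians all differed, so the values were not treated as normalized, and a quantile step was added here. The genome build of the probes was not given in the sources used here. The precision is limited by the number of arrays.

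The table held 6214 rows. Control features (227 rows) were left out, 23 values at or below 0 were set to missing, and log2 intensities were quantile-normalized over the 16 arrays in limma 3.58.1 (R 4.3.3). Replicate spots were averaged by probe. For genes with several probes the one of highest mean intensity was kept. Of 4293 genes, 3777 were named by symbol and 516 by description. One limma fit of 6 group means (lmFit, eBayes) gave every contrast, with Benjamini-Hochberg adjustment over all genes and a threshold of 0.05. Correlations used 100000 permutations (numpy 2.4.6, Python 3.11.15), shuffled within groups for deviations from group means. Nothing states more than that samples came from separate individuals. Genes named in the text were all genes of the symbol rule, the 8 most like Mzb1 by each measure, and measured genes of marker and pathway lists. The 41 immunoglobulin genes were added after the annotation was read. Members and lists were chosen with earlier results of these data known. The fit was tested on simulated data. Alternatives covered normalization, probes, filters, groups entered, pooled controls, a replicate block, limma options and each array left out; some, on arrays of low median, Mzb1 spots and the second Pigr probe, were chosen after seeing the data. The deposited value table of all arrays and the ileum and liver tables were not used for tests.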

Additional observations from a re-analysis of the deposited data

How the results depend on the processing

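No member was called under any alternative (0 of 6 throughout, lowest adjusted p = 0.441 in limma over 632 values, none under 0.05), and the fold threshold of the methods, over 2 or under 0.5, required here in every mouse, also gave 0 of 6. Of 248 diet differences under settings other than leaving out 1 array, 23 took the other sign, all uncalled. With values as deposited, where the median of all genes moved to -0.59 for Fru, they were Jchain (-0.34), Cd79a (-0.55) and Cd79b (-0.22) for Fru, Cd79a (-0.21) for CGA, and Igh-VJ558 (-0.32) and Cd79a (-0.39) for STL. After the arrays were shifted to equal 75th percentiles they were Cd79a (-0.042) for Fru, and Igh-VJ558 (-0.021) and Cd79a (-0.084) for STL. With pooled controls they were Jchain for Chic (-0.0035) and Fru (-0.062), Mzb1 for CGA (0.16) and STL (0.070), and Igh-VJ558 for STL (-0.21). With array weights they were Cd79a for Chic (-0.16) and STL (-0.16). Without the 4 arrays of low median they were Cd79a (-0.30) and Cd79b (-0.045) for Chic, Mzb1 (0.061) for CGA and Cd79a (-0.15) for STL; the Mzb1 difference was then 0.36 for Chic and 0.63 for Fru. The other Pigr probe gave 0.13 for Chic and 0.0061 for STL. The cause was not tested. Cd79a had no value once the dimmest genes were left out (3220 genes kept).

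Leaving out 1 array in turn, Mzb1 ranged over 0.30 to 0.84 for Chic (lowest without Ctr1 mouse 1, highest without Ctr1 mouse 2), 0.55 to 1.08 for Fru, -0.28 to 0.18 for CGA and -0.38 to 0.085 for STL. Cd79a ranged over -0.58 to 0.94, -0.52 to 1.01, -0.13 to 0.53 and -0.19 to 0.47 for Chic, Fru, CGA and STL in that order, and Cd79b over -0.11 to 0.77, -0.057 to 0.82, -0.39 to 0.26 and -0.43 to 0.22. Jchain ranged over -0.057 to 0.36 for Fru, and Igh-VJ558 over -0.36 to 0.16 for CGA and -0.23 to 0.42 for STL.

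Counts over all genes were small and unstable. They were 0 in Chic against Ctr1 and 1 in Fru against Ctr1. For Fru the count was 0 as deposited, with the compared groups alone and with pooled controls, and 2 without the 4 arrays of low median. For Chic it was 1 without the dimmest genes, 2 with array weights and 3 without the 4 arrays. The fold threshold in every mouse gave 10 genes for Chic, 39 for Fru, 35 for CGA and 21 for STL. With 1 array left out the counts reached 0 to 39 for Chic, 0 to 44 for Fru, 0 to 25 for CGA, 0 to 23 for STL and 0 to 38 for Ctr2 against Ctr1; the highest came without Ctr1 mouse 1 or Ctr2 mouse 1, which leaves 1 control.

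No source ties equal replicate numbers to a shared litter, batch or day, and each comparison has only 2 same-numbered pairs, so the numbers were not taken to pair the mice. Of 8 such pairs 6 correlated above 0.1 in their deviations, and the number 2 pairs of CGA and STL with Ctr2 did not (-0.28 and -0.26). With the replicate block, Mzb1 was 0.48 for Chic and 0.72 for Fru, Igh-VJ558 was -0.017 for STL, and 0 genes were called in Fru against Ctr1, against 1.

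For the correlation of Mzb1 with Cd79b, r stayed above 0 but lost its adjusted p under 0.05 with the 75th percentile shift (0.75, adjusted p = 0.171), as deviations (0.79, adjusted p = 0.0760), within the Chic, Fru and Ctr1 arrays (0.75), within the CGA, STL and Ctr2 arrays (0.84), without the 2 farthest arrays (0.76) and without the 4 arrays of low median (0.69); it ranged over 0.74 to 0.82 with 1 array left out, and in 11 of those 16 omissions it no longer passed the threshold. With values as deposited, where brightness is shared by all genes and 4118 of 4275 correlated past the threshold, r was 0.89 for Cd79a, 0.87 for Jchain, 0.80 for Igh-VJ558 and 0.81 for Pigr. Jchain was 0.12 with the 75th percentile shift, 0.026 within the CGA, STL and Ctr2 arrays, 0.10 without the 2 farthest arrays and 0.35 without the 4 arrays, and -0.33 to 0.11 with 1 array left out. Pigr was 0.019 with that shift, 0.17 as deviations, 0.78 within the CGA, STL and Ctr2 arrays, 0.37 without the 2 farthest arrays, and -0.22 to 0.13 with 1 array left out.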

Other observations

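The spots of Mzb1 agreed in the caecum but not in the other tissues of the series. In the caecum table the 10 spots spanned a median of 0.60 log2 units on an array (0.24 to 0.89). In the ileum table the 4 spots carrying the symbol spanned 2.30 (1.77 to 2.96), with deposited intensities of 405 to 5685, and in the liver table the 3 spots spanned 3.58 (2.72 to 4.35), with 273 to 10564. Levels of Mzb1 in ileum and liver were therefore not set beside those in caecum.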
